A study of Mus musculus with 18 samples.

Results

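Genes of the ATF4 and unfolded protein response (UPR) pathways were followed in bone marrow-derived macrophages (BMDMs), 10 in all: Atf4, Atf5, Ddit3, Trib3, Chac1, Asns, Sesn2, Ppp1r15a, Hspa5 and Xbp1. They were found by symbol among the 50600 Ensembl genes of the count table, all 10 were found, and all 10 were among the 15663 genes that passed the filter on low counts. BMDMs of WT mice and of IRF5 KO mice, which lack the transcription factor IRF5, were grown with GM-CSF for 8 days. Cells were pretreated for 1 h with DMSO or with 3.5 µM defactinib, an inhibitor of the kinases FAK and PYK2, and then given 100 ng/ml LPS, the TLR4 ligand, for 2 h. Each genotype gave 3 groups of 3 libraries, called unstimulated, LPS DMSO and LPS defactinib, so that there were 6 groups. The labels give DMSO for the unstimulated libraries, while the column names mark them as untreated, and no group received defactinib without LPS. The methods name purchased male C57BL/6J mice aged 8 to 11 weeks, but which donors gave these cultures, and the strain, age and kind of knockout of the IRF5 KO donors, are not given in the sources used here. The submitters call the 3 libraries of a group biological replicates, but whether they came from separate mice is not given, so that p-values measure only the spread between these libraries, which may be technical. The design sets LPS against no stimulus, defactinib against its vehicle in stimulated cells, and one genotype against the other.

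The integrated stress response starts when a kinase such as PERK (Eif2ak3), PKR (Eif2ak2) or GCN2 (Eif2ak4) phosphorylates the initiation factor eIF2α. General translation then falls, while the Atf4 mRNA is translated better, and the ATF4 protein switches on genes of amino acid supply, redox balance and cell fate. The UPR is the set of signals from misfolded protein in the endoplasmic reticulum (ER), carried by PERK, by ATF6 and by IRE1 (Ern1), which splices the Xbp1 mRNA. In macrophages TLR4 signals are known to engage IRE1 and XBP1 and to dampen the ATF4 and CHOP branch. Counts summed per gene show neither the translation of Atf4 nor the splicing of Xbp1.

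The gene counts of a library summed to between 39282181 and 61949143 read pairs. Levels between libraries are given as CPM (counts scaled to library size with TMM normalization). Means are over 3 libraries with their SD. The words rose, fell and changed are used for a false discovery rate below 0.05 together with a fold change above 2 in edgeR's quasi-likelihood test. The library labelled IRF5 KO LPS DMSO replicate 3 stood apart from its group. Whether its label holds, or those of replicates 1 and 2, could not be settled from the files. Its log2 CPM over the tested genes had a Pearson r of 0.932 with replicates 1 and 2, against 0.978 to 0.979 with libraries of unstimulated IRF5 KO cells. The chi-square of its counts was 441 and 425 per gene against these replicates, which differed from each other by 2.33 per gene. In Xbp1 replicates 1 and 2 (49.7 and 52.6 CPM) were near the IRF5 KO LPS defactinib libraries (51.3 to 55.0 CPM). In Ppp1r15a they were above them, at 502 and 508 CPM against 284 to 314 CPM. Their correlations with that group are not given here. Fits without replicate 3 are therefore alternatives and not corrections. WT LPS defactinib replicate 3 stood apart less, at 140 and 183 per gene against 84.1 between replicates 1 and 2. Results of the 10 genes that use these libraries are given with them, and also without them where a call was gained or lost. Irf5 (ENSMUSG00000029771, chr6:29526625-29541871) was counted at 587 to 650.3 CPM in unstimulated WT and at 335 to 397 CPM in unstimulated IRF5 KO libraries. The exons removed in the knockout are not given in the sources used here, so that a whole-gene count does not check these labels. All 6 LPS response genes examined (Tnf, Il6, Il1b, Il12b, Cxcl10 and Ifit1) rose with LPS in WT and in IRF5 KO cells, and 5 of them in IRF5 KO cells without LPS DMSO replicate 3, where Ifit1 was at 11.1 and 10.8 CPM in replicates 1 and 2 and at 574 CPM in replicate 3. The summed level of 8 macrophage markers was between 11398 and 21243 CPM in every library, with IRF5 KO LPS defactinib the highest group at 20269 to 21243 CPM. The 6 dendritic cell markers summed to 110 to 120 CPM in WT unstimulated and 374 to 485 CPM in WT LPS DMSO libraries, to 62.8 to 123 CPM in WT LPS defactinib, and in IRF5 KO to 122 to 167, 209 to 274 and 267 to 278 CPM in the same order. The 8 neutrophil markers summed to between 54.5 and 196 CPM in any library, with all unstimulated libraries at or under 75.2 CPM. The 8 mast cell and basophil markers summed to between 9.84 and 101 CPM, at 10.7 to 11.6 CPM in WT unstimulated and 45.3 to 58.0 CPM in WT LPS DMSO, 9.84 to 34.6 CPM in WT LPS defactinib, 49.1 to 57.4 CPM in IRF5 KO unstimulated, 49.4 to 101 CPM in IRF5 KO LPS DMSO and 50.8 to 55.4 CPM in IRF5 KO LPS defactinib libraries, with Mcpt4 at 0 throughout. The 6 lymphocyte markers summed to at most 0.945 CPM. The part of these marker differences in the results was not tested. In bulk RNA fewer cells of a type and less RNA per cell cannot be told apart.

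Ppp1r15a, Sesn2, Chac1 and Xbp1 were the members called with LPS in either genotype, and for this reason the bases before their transcription starts are printed, from RefSeq on GRCm38.p6, read 5′ to 3′ towards the gene and ending where the RefSeq or GENCODE gene begins. Capitals mark a cAMP response element (CRE, TGACGTCA) in Ppp1r15a and, read on the opposite strand, a C/EBP-ATF response element (CARE, TGATGNAAN) in Chac1.
Ppp1r15a, chr7:45526269-45526518, minus strand: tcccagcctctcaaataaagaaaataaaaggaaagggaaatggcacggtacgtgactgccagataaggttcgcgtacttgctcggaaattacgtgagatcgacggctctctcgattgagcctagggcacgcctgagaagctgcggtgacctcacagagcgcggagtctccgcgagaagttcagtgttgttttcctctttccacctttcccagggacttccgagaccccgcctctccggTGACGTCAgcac
Sesn2, chr4:132510502-132510706, minus strand: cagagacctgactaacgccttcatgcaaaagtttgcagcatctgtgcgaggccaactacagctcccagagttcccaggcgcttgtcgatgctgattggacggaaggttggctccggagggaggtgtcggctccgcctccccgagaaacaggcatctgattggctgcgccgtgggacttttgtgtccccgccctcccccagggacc
Chac1, chr2:119350992-119351228, plus strand: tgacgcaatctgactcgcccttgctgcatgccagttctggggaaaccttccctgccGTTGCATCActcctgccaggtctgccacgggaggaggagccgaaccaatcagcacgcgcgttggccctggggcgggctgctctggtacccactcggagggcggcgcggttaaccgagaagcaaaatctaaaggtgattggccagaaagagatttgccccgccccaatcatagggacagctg
Xbp1, chr11:5520391-5520640, plus strand: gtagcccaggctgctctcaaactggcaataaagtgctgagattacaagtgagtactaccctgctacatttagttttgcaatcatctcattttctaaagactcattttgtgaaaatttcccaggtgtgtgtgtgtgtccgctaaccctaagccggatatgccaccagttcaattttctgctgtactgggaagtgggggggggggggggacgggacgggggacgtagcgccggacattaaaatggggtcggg
All 10 genes had at least 1 RefSeq promoter window of 300 bases, 250 before the start and 50 after it. The windows were searched on both strands for CARE, CRE, the ER stress element ERSE (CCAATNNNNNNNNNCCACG) and the core of the UPR element UPRE (TGACGTGG), which do not contain each other. CARE was found in 3.95% of all 32851 promoter windows, CRE in 1.79%, ERSE in 0.119% and the UPRE core in 0.676%. Among the 10 genes CARE letters stood in Chac1 (GTTGCATCA, first base 194 bases before the start, chr2:119351048-119351056), Asns (TGATGAAAC, 23 bases before the start, chr6:7693224-7693232) and Trib3 (TTTACATCA, 13 bases after the start, chr2:152344039-152344047). CRE letters stood in Ppp1r15a, 12 bases before the start (chr7:45526273-45526280), and ERSE letters in Hspa5 (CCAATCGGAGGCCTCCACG, 65 bases before the start, chr2:34772025-34772043). The Asns and Hspa5 matches lie inside the GENCODE gene, which begins upstream of the RefSeq start. No window of the other genes held any of the 4 motifs, which says only that these letters are not in these windows.

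Levels were compared between genes only per length, as RPKM. In unstimulated WT cells Hspa5, the ER chaperone BiP, was the most abundant at 167 ± 9.83 RPKM, followed by Atf4 at 112 ± 4.05 and Xbp1 at 66.6 ± 0.745 RPKM. Sesn2 (23.1 ± 1.65 RPKM), Asns (14.6 ± 1.23 RPKM) and Atf5 (10.98 ± 0.508 RPKM) were lower. Ppp1r15a at 7.27 ± 0.408 and Ddit3 at 6.76 ± 0.548 RPKM lay within their spread of each other, and Trib3 (2.89 ± 0.603 RPKM) and Chac1 (1.43 ± 0.193 RPKM) were the lowest. After LPS with DMSO in WT cells Ppp1r15a stood at 44.2 ± 2.76 RPKM, close to Xbp1 at 50.9 ± 2.26 RPKM.

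**Figure D1:**
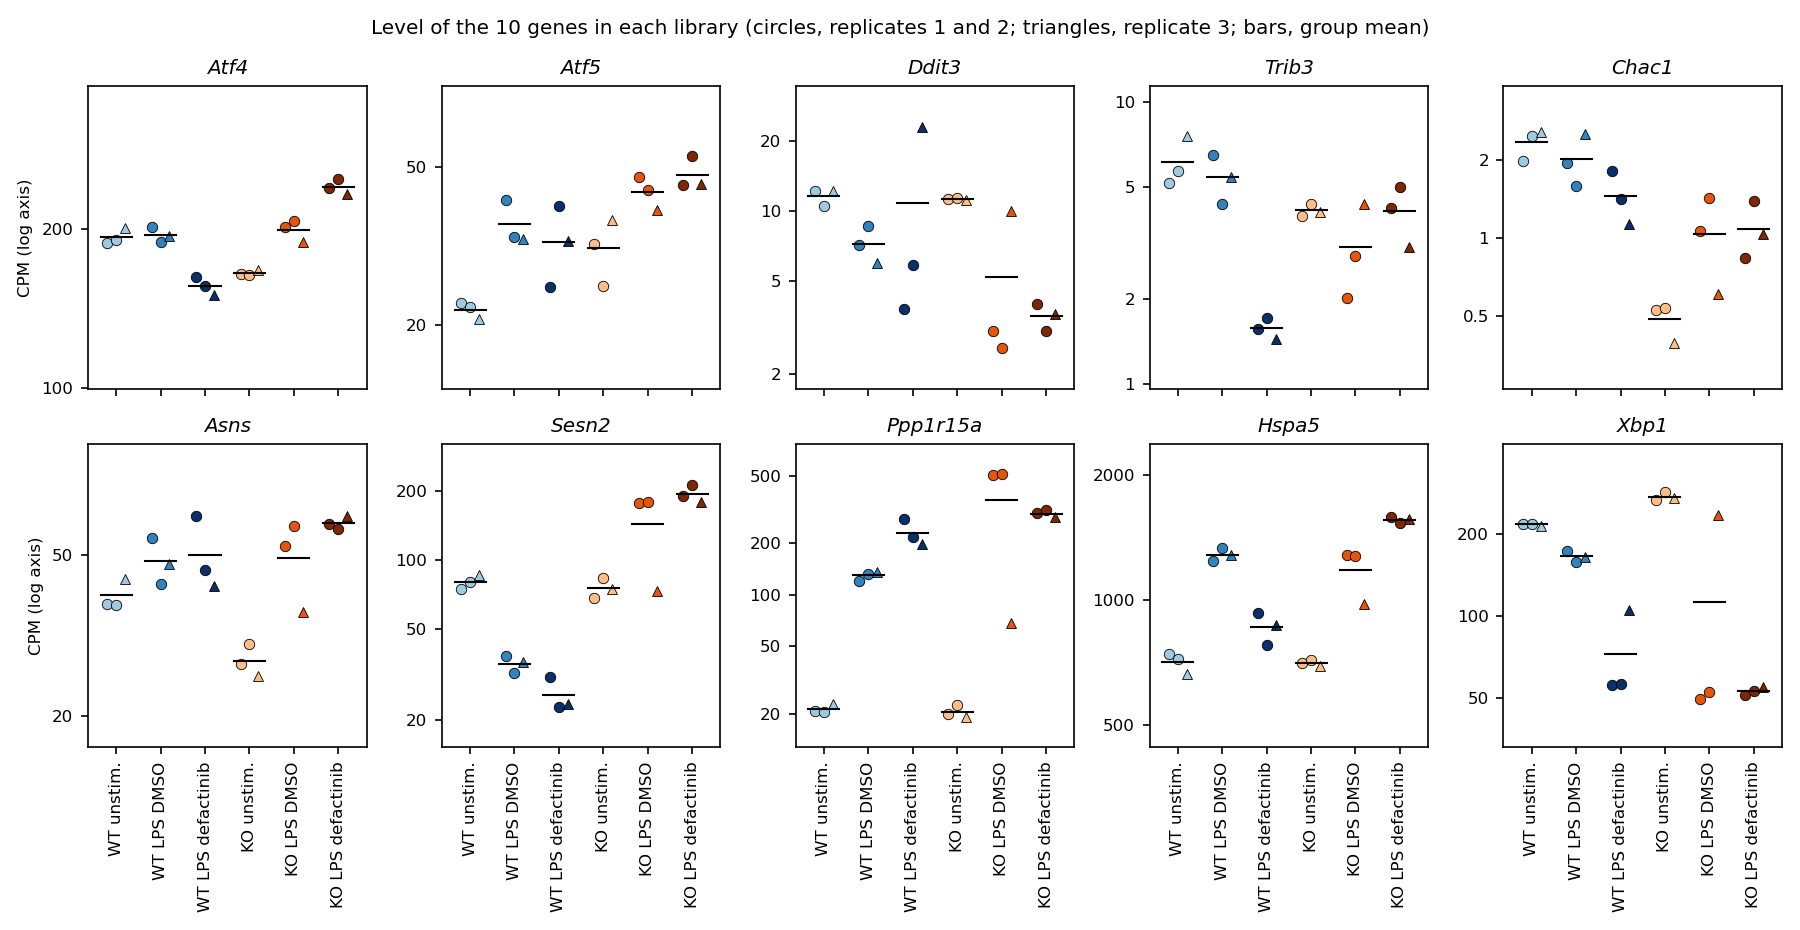
Level of each of the 10 genes in CPM on a log axis, for the 18 libraries in 6 groups, with circles for replicates 1 and 2, triangles for replicate 3 and bars for group means. IRF5 KO LPS DMSO replicate 3 lies away from replicates 1 and 2 in Ppp1r15a, Sesn2, Xbp1 and Ddit3, and WT LPS defactinib replicate 3 lies above its group in Ddit3 and Xbp1.

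The first comparison asked how LPS alone acted on these genes. In WT cells Ppp1r15a rose 6.08-fold and Sesn2 fell 2.27-fold, and the other 8 genes were not called. The shares of 1 in 10 in each direction stood beside 11.6% of all tested genes called higher and 9.71% called lower. In IRF5 KO cells Ppp1r15a and Chac1 rose and Xbp1 fell, beside 7.07% of genes called higher and 6.28% called lower. When IRF5 KO LPS DMSO replicate 3 was left out, 6 of the 10 were called, with Sesn2, Asns, Chac1 and Ppp1r15a higher and Xbp1 and Ddit3 lower, beside 9.64% of genes higher and 16.6% lower. The median log2 fold change of the 10 genes was -0.086 in WT and 0.61 in IRF5 KO cells, against -0.0045 and 0.0063 over all tested genes.

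Ppp1r15a (ENSMUSG00000040435, chr7:45522916-45526268) encodes GADD34, the inducible subunit of the phosphatase that removes the phosphate from eIF2α and so ends the stress signal. It was at 20.7, 20.6 and 22.7 CPM in WT unstimulated libraries and at 121, 132 and 136 CPM after LPS with DMSO, so that the groups were far apart. The test gave a log2 fold change of 2.60 ± 0.47 (SE, edgeR, adjusted p = 0.000384). It went, with LPS in IRF5 KO cells, from 19.99, 22.4 and 19.2 CPM to 502, 508 and 68.1 CPM. All 3 libraries lay above every unstimulated one, but replicate 3 was far lower than the others and lay below all 3 WT LPS DMSO libraries. The log2 fold change of 4.13 ± 0.50 (SE, edgeR, adjusted p = 0.000117) became 4.62 ± 0.12 (SE, edgeR, adjusted p = 5.58e-14) without replicate 3. A fit of only the groups compared, IRF5 KO unstimulated and LPS DMSO, gave 4.19 (adjusted p = 0.0641), which is not past the threshold.

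Sesn2 (ENSMUSG00000028893, chr4:132492032-132510501) encodes Sestrin 2, a stress-induced inhibitor of mTORC1 signalling. In WT cells it fell from 74.5, 80.1 and 85.9 CPM to 37.9, 32.1 and 35.7 CPM with LPS, a log2 fold change of -1.18 ± 0.24 (SE, edgeR, adjusted p = 0.000932). The levels of Sesn2 in IRF5 KO cells were 68.1, 83.4 and 74.5 CPM without stimulus and 178, 179.9 and 73.1 CPM after LPS. Replicates 1 and 2 were thus above the unstimulated libraries and replicate 3 was among them. With all libraries the log2 fold change of 0.93 ± 0.24 (SE, edgeR, adjusted p = 0.00958) was below the 2-fold threshold, and without replicate 3 Sesn2 was called higher, at 1.25 ± 0.12 (SE, edgeR, adjusted p = 1.69e-07). Leaving out unstimulated replicate 2 instead also gave a call, at 1.01 (adjusted p = 0.0213).

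Xbp1 (ENSMUSG00000020484, chr11:5520659-5525893), the transcription factor of the IRE1 branch, was at 218, 217 and 213 CPM in WT unstimulated and at 173, 158 and 165 CPM in WT LPS DMSO libraries. The groups did not overlap, but the log2 fold change of -0.39 ± 0.43 (SE, edgeR, adjusted p = 0.509) did not pass the test. Xbp1 in IRF5 KO cells was at 266, 283 and 270.3 CPM without stimulus and at 49.7, 52.6 and 234 CPM after LPS, with replicate 3 close to the unstimulated level. The log2 fold change of -1.28 ± 0.44 (SE, edgeR, adjusted p = 0.0327) was -2.42 ± 0.20 (SE, edgeR, adjusted p = 5.25e-08) without replicate 3. The call with all libraries was lost without LPS DMSO replicate 1, at -0.91 (adjusted p = 0.137), without replicate 2, at -0.93 (adjusted p = 0.139). The same held without unstimulated replicate 1, at -1.30 (adjusted p = 0.0656), without replicate 2, at -1.26 (adjusted p = 0.0721), and without replicate 3, at -1.29 (adjusted p = 0.0697). It was lost too with no filter on low counts, at -1.29 (adjusted p = 0.0938), and in a fit of only these groups, at -1.23 (adjusted p = 0.202).

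Chac1 (ENSMUSG00000027313, chr2:119351229-119354381), which degrades glutathione, had the fewest counts of the 10 genes, 20 to 34 in the unstimulated IRF5 KO libraries. The IRF5 KO levels of Chac1 were 0.53, 0.539 and 0.393 CPM without stimulus and 1.07, 1.43 and 0.607 CPM after LPS, a log2 fold change of 1.07 ± 0.32 (SE, edgeR, adjusted p = 0.0195) with no overlap between the groups. Without LPS DMSO replicate 3 the value was 1.34 ± 0.30 (SE, edgeR, adjusted p = 0.00103). The call was lost without LPS DMSO replicate 1, at 1.05 (adjusted p = 0.0593), without replicate 2, at 0.78 (adjusted p = 0.109), without unstimulated replicate 3, at 0.94 (adjusted p = 0.0733), by library size alone, at 0.81 (adjusted p = 0.0458), and in a fit of only these groups, at 1.13 (adjusted p = 0.117). In WT cells Chac1 was at 1.98, 2.47 and 2.58 CPM and at 1.95, 1.59 and 2.52 CPM, and the log2 fold change of -0.22 ± 0.30 (SE, edgeR, adjusted p = 0.598) did not pass the test.

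Atf4 (ENSMUSG00000042406, chr15:80255184-80257540) itself was nearly level in WT cells, at 188, 190.4 and 201 CPM without stimulus and 201, 189 and 194 CPM after LPS. The groups overlapped, with a log2 fold change of 0.012 ± 0.068 (SE, edgeR, adjusted p = 0.914), though scaling by library size alone, which moves the median of all genes by -0.38 in this comparison, gave -0.37 (adjusted p = 0.000168). The IRF5 KO means of Atf4 were 165 ± 1.62 CPM and 199 ± 9.47 CPM, with a log2 fold change of 0.27 ± 0.068 (SE, edgeR, adjusted p = 0.00832), below the 2-fold threshold, and 0.029 (adjusted p = 0.734) by library size alone. Atf5 (ENSMUSG00000038539, chr7:44812256-44816658), the related factor of the mitochondrial stress response, was at 21.9 ± 1.01 CPM and 35.9 ± 4.74 CPM in WT, a log2 fold change of 0.72 ± 0.17 (SE, edgeR, adjusted p = 0.00236), and at 31.3 ± 5.88 CPM and 43.3 ± 4.17 CPM in IRF5 KO cells, giving a log2 fold change of 0.47 ± 0.16 (SE, edgeR, adjusted p = 0.0367). Both differences of Atf5 were under 2-fold, and by library size alone neither passed the test, at 0.34 (adjusted p = 0.0845) and 0.23 (adjusted p = 0.263).

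Hspa5 (ENSMUSG00000026864, chr2:34771970-34777547) was at 742, 720.3 and 662 CPM in WT unstimulated and 1245, 1332 and 1282 CPM in WT LPS DMSO libraries. No library overlapped, but the log2 fold change of 0.86 ± 0.10 (SE, edgeR, adjusted p = 6e-06) stayed below 2-fold. Hspa5 in IRF5 KO cells was at 704, 715 and 692 CPM and 1287, 1279 and 977 CPM, a log2 fold change of 0.75 ± 0.10 (SE, edgeR, adjusted p = 0.000218), again below 2-fold. Asns (ENSMUSG00000029752, chr6:7675169-7693254), asparagine synthetase, was at 39.8 ± 3.37 CPM and 48.4 ± 6.41 CPM in WT, where the log2 fold change of 0.28 ± 0.17 (SE, edgeR, adjusted p = 0.206) did not pass the test. Asns in IRF5 KO cells was at 27.0, 30.2 and 25.2 CPM and 52.6, 59.2 and 36.3 CPM. This log2 fold change of 0.85 ± 0.17 (SE, edgeR, adjusted p = 0.00309) was below 2-fold, and it was called without replicate 3, at 1.02 ± 0.14 (SE, edgeR, adjusted p = 9.48e-06).

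Ddit3 (ENSMUSG00000025408, chr10:127290774-127296288) encodes CHOP, the factor of the late, pro-apoptotic stress response, and Trib3 (ENSMUSG00000032715, chr2:152337422-152344032) a pseudokinase induced by it. Ddit3 was at 12.1, 10.5 and 12.1 CPM in WT unstimulated and at 7.14, 8.62 and 5.97 CPM in WT LPS DMSO libraries. The groups did not overlap, but the log2 fold change of -0.68 ± 0.54 (SE, edgeR, adjusted p = 0.349) did not pass the test. Ddit3 in IRF5 KO cells was at 11.2, 11.4 and 11.2 CPM without stimulus and at 3.05, 2.60 and 9.98 CPM after LPS, a log2 fold change of -1.10 ± 0.55 (SE, edgeR, adjusted p = 0.12). It was called lower without LPS DMSO replicate 3, at -1.99 ± 0.58 (SE, edgeR, adjusted p = 0.00975), and also without WT LPS defactinib replicate 3, which is not in this contrast but enters the estimate of the spread, at -1.09 (adjusted p = 0.0341). Trib3 was at 6.14 ± 1.28 and 5.40 ± 1.06 CPM in WT and at 4.12 ± 0.214 and 3.06 ± 1.17 CPM in IRF5 KO cells, and passed the test in neither, with log2 fold changes of -0.18 ± 0.25 (adjusted p = 0.599) and -0.42 ± 0.25 (adjusted p = 0.195). Without IRF5 KO LPS DMSO replicate 3 Trib3 passed the false discovery rate in IRF5 KO cells below 2-fold, at -0.77 ± 0.24 (SE, edgeR, adjusted p = 0.01).

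**Figure D2:**
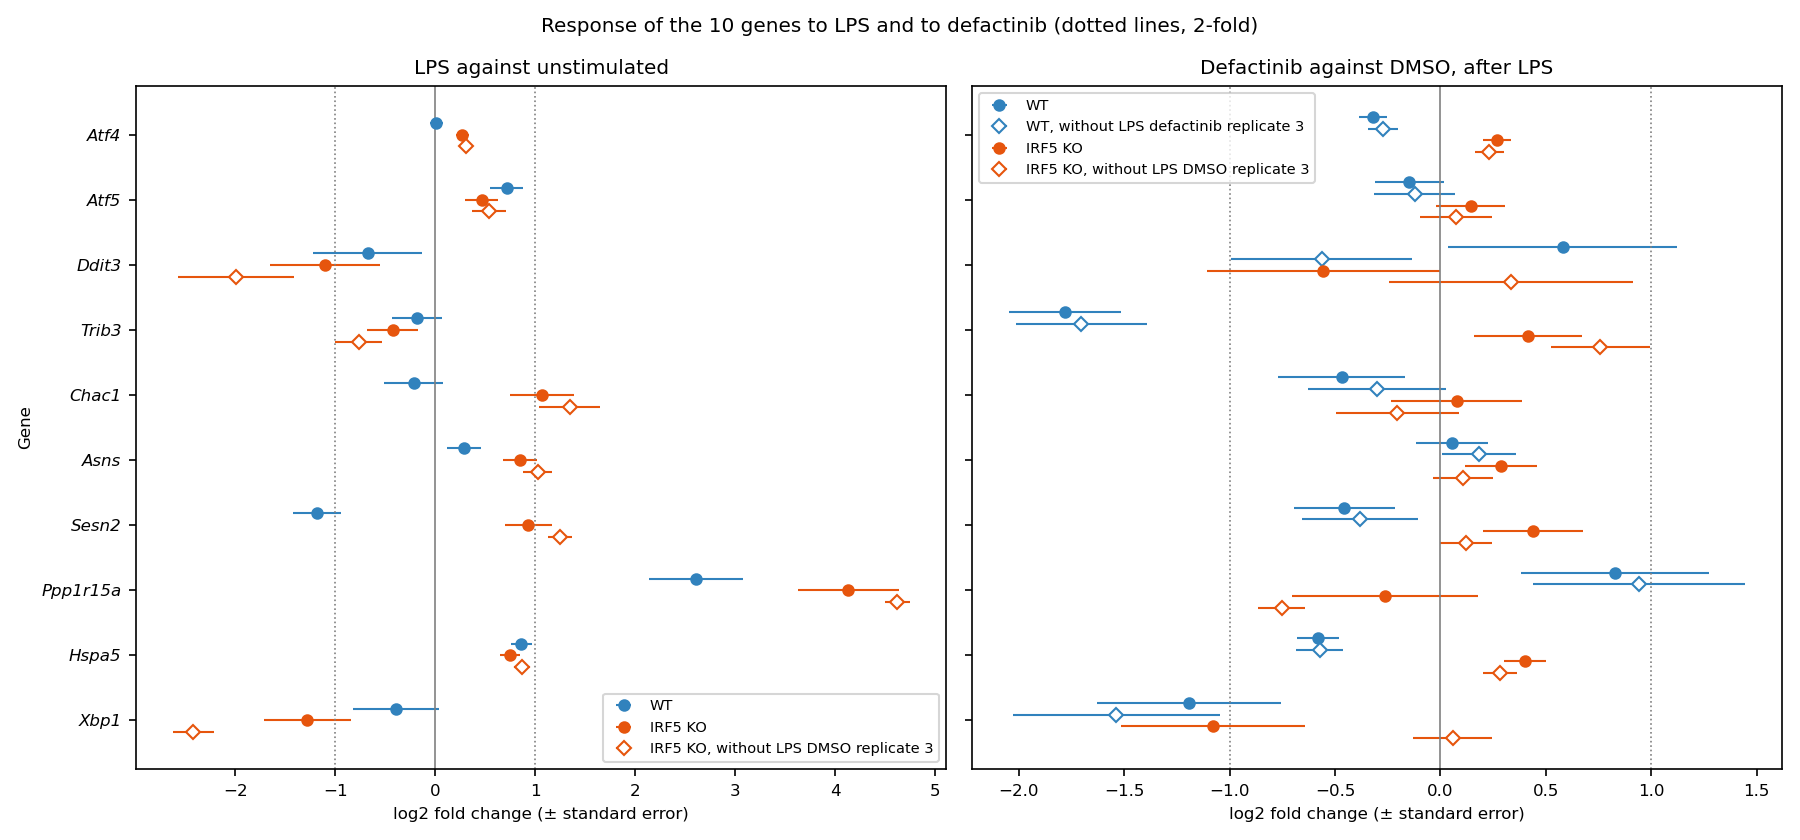
Log2 fold change with its standard error for each gene, for LPS against unstimulated (left) and for defactinib against DMSO after LPS (right), in WT (blue) and IRF5 KO (orange), with open diamonds for the fit without a library that stood apart; dotted lines mark 2-fold. Ppp1r15a lies right of the dotted line with LPS in both genotypes, Sesn2 lies on opposite sides of 0, and with defactinib Trib3 lies left of the dotted line in WT but not in IRF5 KO cells.

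The next comparison asked what defactinib did to these genes in LPS-stimulated cells. In WT cells Trib3 and Xbp1 fell and none of the 10 rose, beside 18.6% of all tested genes called lower and 10.4% called higher. A share of 2 in 10 is close to the background of lower calls. Without WT LPS defactinib replicate 3 the same 2 genes were called, beside 19.4% of genes lower and 10.9% higher. In IRF5 KO cells edgeR called 0 of the 10, DESeq2 called 0, and 3 had an unadjusted p below 0.05. The backgrounds there were 0.16% of genes called higher and 0.76% lower. The count was also 0 when IRF5 KO LPS DMSO replicate 3 was left out, with 4 at an unadjusted p below 0.05, beside 0.611% and 0.842%. Without replicate 1 Xbp1 was called lower, at -1.45 (adjusted p = 0.0377), and without replicate 2 likewise, at -1.43 (adjusted p = 0.0433). The comparisons of LPS and of defactinib share the LPS DMSO libraries of each genotype.

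Trib3 was at 6.47, 4.35 and 5.39 CPM in WT LPS DMSO and at 1.56, 1.71 and 1.44 CPM in WT LPS defactinib libraries. Every treated library lay below every DMSO library, and the log2 fold change of -1.78 ± 0.27 (SE, edgeR, adjusted p = 4.96e-05) is a fall of 3.44-fold. Its counts in the treated libraries were 67, 71 and 56, against 279, 170 and 212 with DMSO. Trib3 in IRF5 KO cells was at 2.01, 2.84 and 4.32 CPM with DMSO and 4.20, 4.99 and 3.05 CPM with defactinib, groups that overlapped. The log2 fold change of 0.41 ± 0.26 (SE, edgeR, adjusted p = 0.343) did not pass the test, nor did the 0.76 ± 0.24 (SE, edgeR, adjusted p = 0.0587) without LPS DMSO replicate 3. The test of the difference between genotypes gave log2 fold change of -2.20 ± 0.37 (SE, edgeR, adjusted p = 0.000275), and -2.54 ± 0.32 (SE, edgeR, adjusted p = 3.84e-06) without that replicate. Trib3 was the only one of the 10 genes called in this test with all libraries, beside 22.8% of all tested genes.

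Xbp1 fell with defactinib in WT cells, from 173, 158 and 165 CPM to 55.7, 56.5 and 105 CPM. All treated libraries lay below the DMSO libraries, and replicate 3 had the highest of the treated levels. The log2 fold change of -1.19 ± 0.44 (SE, edgeR, adjusted p = 0.0299) became -1.54 ± 0.49 (SE, edgeR, adjusted p = 0.0163) without that replicate. The call with all libraries was lost without LPS defactinib replicate 1, at -1.002 (adjusted p = 0.105), without replicate 2, at -1.03 (adjusted p = 0.106). The same held without LPS DMSO replicate 1, at -1.14 (adjusted p = 0.0659), without replicate 2, at -1.20 (adjusted p = 0.0565), and without replicate 3, at -1.18 (adjusted p = 0.0585). It was also lost with no filter, at -1.21 (adjusted p = 0.0824), and by library size alone, at -0.9998 (adjusted p = 0.0719). IRF5 KO LPS DMSO replicate 3 is not in this contrast but enters the spread, the filter, the scaling and the adjustment. When the fit left it out, Xbp1 in WT had -1.19 ± 0.17 (SE, edgeR, adjusted p = 1.17e-05). After defactinib in IRF5 KO cells Xbp1 was at 51.3, 53.2 and 55.0 CPM, next to 49.7 and 52.6 CPM in LPS DMSO replicates 1 and 2. The log2 fold change of -1.08 ± 0.44 (SE, edgeR, adjusted p = 0.154) was 0.057 ± 0.19 (SE, edgeR, adjusted p = 0.893) without replicate 3.

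With TMM normalization Hspa5 and Atf4 passed the false discovery rate in both genotypes with opposite signs, each below 2-fold. By library size alone Atf4 passed in neither, at -0.12 (adjusted p = 0.109) in WT and 0.14 (adjusted p = 0.16) in IRF5 KO cells. On that scale Hspa5 passed in WT, at -0.38 (adjusted p = 0.000896), but not in IRF5 KO cells, at 0.29 (adjusted p = 0.0587). Hspa5 was at 1286 ± 43.7 CPM with DMSO and at 931, 779 and 869.9 CPM with defactinib in WT, a log2 fold change of -0.58 ± 0.10 (SE, edgeR, adjusted p = 0.00019). The IRF5 KO levels of Hspa5 were 1181 ± 177 CPM with DMSO and 1584, 1531 and 1566 CPM with defactinib, a log2 fold change of 0.40 ± 0.10 (SE, edgeR, adjusted p = 0.044), and 0.28 (adjusted p = 0.0396) without LPS DMSO replicate 3. The difference between genotypes was log2 fold change of -0.98 ± 0.14 (SE, edgeR, adjusted p = 7.71e-05), just below 2-fold. It passed 2-fold without IRF5 KO LPS DMSO replicate 1, at -1.02 (adjusted p = 9.53e-05), and without replicate 2, at -1.01 (adjusted p = 0.000115). Atf4 was at 195 ± 6.16 CPM and 162, 156 and 149.8 CPM in WT, a log2 fold change of -0.32 ± 0.068 (SE, edgeR, adjusted p = 0.00093), and at 199 ± 9.47 CPM and 239, 248 and 233 CPM in IRF5 KO cells, giving a log2 fold change of 0.27 ± 0.068 (SE, edgeR, adjusted p = 0.0444). The genotype difference of Atf4 was log2 fold change of -0.59 ± 0.096 (SE, edgeR, adjusted p = 0.000211), and -0.26 (adjusted p = 0.0239) by library size alone, where that of Hspa5 was -0.67 (adjusted p = 0.000315). For both genes no library of a treated group overlapped its DMSO group.

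Ppp1r15a was at 121, 132 and 136 CPM with DMSO and 277, 217 and 198 CPM with defactinib in WT. The treated libraries were all higher, but the log2 fold change of 0.83 ± 0.44 (SE, edgeR, adjusted p = 0.123) did not pass the test. Scaled by library size alone it was called, at 1.03 (adjusted p = 0.0446). In the fit without IRF5 KO LPS DMSO replicate 3, which is not in this contrast, it passed the false discovery rate below 2-fold, at 0.83 ± 0.10 (SE, edgeR, adjusted p = 2.02e-06). With defactinib in IRF5 KO cells Ppp1r15a was at 300.3, 314 and 284 CPM, below LPS DMSO replicates 1 and 2 and above replicate 3. The log2 fold change of -0.26 ± 0.44 (SE, edgeR, adjusted p = 0.761) was -0.75 ± 0.11 (SE, edgeR, adjusted p = 0.000935) without replicate 3, which passed the false discovery rate and not 2-fold. The genotype difference, log2 fold change of 1.09 ± 0.63 (SE, edgeR, adjusted p = 0.188), was called without replicate 3, at 1.58 ± 0.15 (SE, edgeR, adjusted p = 1.58e-07). Without that replicate Xbp1 was called too, at -1.25 ± 0.25 (SE, edgeR, adjusted p = 0.000577). With all libraries the genotype difference of Xbp1 was -0.11 ± 0.61 (SE, edgeR, adjusted p = 0.901). Thus 3 of the 10 genes were called in this test without that replicate, beside 31.6% of genes.

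Sesn2 was at 30.8, 22.9 and 23.4 CPM in WT LPS defactinib libraries, all below the 3 DMSO libraries, and the log2 fold change of -0.46 ± 0.24 (SE, edgeR, adjusted p = 0.115) did not pass the test. It passed the false discovery rate below 2-fold in the fit without IRF5 KO LPS DMSO replicate 3, at -0.46 ± 0.11 (SE, edgeR, adjusted p = 0.00193). With defactinib in IRF5 KO cells Sesn2 was at 191, 214 and 179 CPM, with a log2 fold change of 0.44 ± 0.24 (SE, edgeR, adjusted p = 0.279), and 0.12 (adjusted p = 0.604) without LPS DMSO replicate 3. Its genotype difference of -0.89 ± 0.34 (adjusted p = 0.0487) passed 2-fold without LPS DMSO replicate 1, at -1.05 (adjusted p = 0.0278), and without replicate 2, at -1.06 (adjusted p = 0.026). It was smaller without LPS DMSO replicate 3, at -0.58 ± 0.17 (SE, edgeR, adjusted p = 0.00783), and did not pass the false discovery rate by library size alone, at -0.60 (adjusted p = 0.12), or without WT LPS defactinib replicate 3, at -0.80 (adjusted p = 0.0957). Ddit3 was at 3.79, 5.85 and 22.9 CPM with defactinib in WT, with 1 library far above the others and above every other library of the series. Its log2 fold change of 0.58 ± 0.54 (adjusted p = 0.374) turned to -0.56 ± 0.43 (SE, edgeR, adjusted p = 0.271) without that library, and neither passed the test. Ddit3 with defactinib in IRF5 KO cells was at 4.01, 3.07 and 3.61 CPM, against 3.05, 2.60 and 9.98 CPM with DMSO. Its log2 fold change there, -0.56 ± 0.55 (adjusted p = 0.578), turned to 0.34 ± 0.58 (SE, edgeR, adjusted p = 0.775) without LPS DMSO replicate 3. The genotype difference of Ddit3, 1.13 ± 0.78 (adjusted p = 0.27), was 0.24 (adjusted p = 0.809) without that replicate and 0.0073 (adjusted p = 0.996) without WT LPS defactinib replicate 3. Atf5, Asns and Chac1 were not called in either genotype, with log2 fold changes between -0.47 (Chac1 in WT) and 0.29 (Asns in IRF5 KO).

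Cells given LPS and defactinib were also set against unstimulated cells. In WT 4 of the 10 genes were called, beside 24.9% of all tested genes, and in IRF5 KO 7 of the 10, beside 24%. Library size alone, which moves the median of all genes by -0.36 in the IRF5 KO comparison, left 3 of those 7. The share of all tested genes called on that scale is not given here. In WT Ppp1r15a rose 10.8-fold with a log2 fold change of 3.43 ± 0.49 (SE, edgeR, adjusted p = 6.64e-05), while Trib3 at -1.97 ± 0.27 (adjusted p = 3.83e-05), Sesn2 at -1.64 ± 0.24 (adjusted p = 8.7e-05) and Xbp1 at -1.58 ± 0.44 (adjusted p = 0.00787) fell. Ddit3 was at -0.097 ± 0.54 (adjusted p = 0.89), and was called lower without WT LPS defactinib replicate 3, at -1.24 ± 0.44 (SE, edgeR, adjusted p = 0.0276).

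In IRF5 KO cells Ppp1r15a rose 14.6-fold (log2 fold change of 3.87 ± 0.50, edgeR, adjusted p = 5.75e-05), and Sesn2 (1.37 ± 0.24, adjusted p = 0.000385), Hspa5 (1.15 ± 0.10, adjusted p = 1.88e-06), Chac1 (1.15 ± 0.32, adjusted p = 0.00731) and Asns (1.13 ± 0.17, adjusted p = 0.000149) rose with it. The last 4 were below 2-fold by library size alone, at 0.9999 (adjusted p = 0.00125), 0.78 (adjusted p = 1.31e-05), 0.78 (adjusted p = 0.0402) and 0.77 (adjusted p = 0.000907). Xbp1 fell 5.13-fold (log2 fold change of -2.36 ± 0.45, edgeR, adjusted p = 0.000703), from 266, 283 and 270.3 CPM to 51.3, 53.2 and 55.0 CPM. Ddit3 fell 3.16-fold (log2 fold change of -1.66 ± 0.56, edgeR, adjusted p = 0.0211), from 11.2, 11.4 and 11.2 CPM to 4.01, 3.07 and 3.61 CPM, with no overlap. The Ddit3 call was lost without IRF5 KO LPS defactinib replicate 2, at -1.55 (adjusted p = 0.0702), or replicate 3, at -1.67 (adjusted p = 0.056), and with no filter, at -1.70 (adjusted p = 0.0552). The Chac1 value without LPS defactinib replicate 2 was 0.94 (adjusted p = 0.0379), below 2-fold. The IRF5 KO LPS DMSO libraries are not in these contrasts and enter only through the spread, the filter, the scaling and the adjustment. Without replicate 3 of that group Ppp1r15a in WT was 3.43 ± 0.11 (SE, edgeR, adjusted p = 4.38e-13) and Xbp1 in IRF5 KO was -2.36 ± 0.17 (SE, edgeR, adjusted p = 7.96e-09).

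The last comparison set WT against IRF5 KO cells, and positive log2 values are higher in WT. Unstimulated, 1 of the 10 genes was called, beside 7.31% of all tested genes. This was Chac1, at 1.98, 2.47 and 2.58 CPM in WT and 0.53, 0.539 and 0.393 CPM in IRF5 KO, 4.78-fold higher in WT with a log2 fold change of 2.26 ± 0.32 (SE, edgeR, adjusted p = 0.000139) and no overlap. Atf4 (0.23 ± 0.068, adjusted p = 0.0323), Atf5 (-0.52 ± 0.16, adjusted p = 0.0434) and Asns (0.53 ± 0.17, adjusted p = 0.0446) passed the false discovery rate below 2-fold. Atf4 and Asns did not by library size alone, at 0.12 (adjusted p = 0.244) and 0.42 (adjusted p = 0.0841), and Atf5 did not without WT LPS defactinib replicate 3, at -0.51 (adjusted p = 0.0535). The mast cell and basophil markers differed in the same libraries, at 10.7 to 11.6 CPM in WT and 49.1 to 57.4 CPM in IRF5 KO, with 2 of 5 tested markers lower in WT and a median log2 fold change of -1.30. Their part in these results was not tested. Ddit3, Sesn2, Ppp1r15a and Hspa5 had values within 0.10 of 0 in this comparison, and their libraries overlapped.

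After LPS with DMSO, Sesn2 and Ppp1r15a were called, both lower in WT, beside 25.8% of genes. Sesn2 was at 37.9, 32.1 and 35.7 CPM in WT and 178, 179.9 and 73.1 CPM in IRF5 KO, so that even replicate 3 lay above the WT libraries, with a log2 fold change of -2.03 ± 0.25 (SE, edgeR, adjusted p = 1.12e-05) and -2.34 ± 0.12 (SE, edgeR, adjusted p = 7.56e-11) without replicate 3. Ppp1r15a had a log2 fold change of -1.47 ± 0.45 (SE, edgeR, adjusted p = 0.0136), with replicate 3 of IRF5 KO below the WT libraries. It was -1.96 ± 0.11 (SE, edgeR, adjusted p = 2.07e-10) without that replicate, and the call was lost without replicate 1, at -1.16 (adjusted p = 0.0637), without replicate 2, at -1.15 (adjusted p = 0.0648), and in a fit of only these groups, at -1.50 (adjusted p = 0.127). Without replicate 3, 4 of the 10 genes were called, beside 34.5% of genes, the others being Trib3 at 1.16 (adjusted p = 0.000394) and Xbp1 at 1.69 (adjusted p = 1.57e-06), both higher in WT. With all libraries Trib3 was at 0.82 ± 0.26 (adjusted p = 0.0147), Chac1 at 0.97 ± 0.31 (adjusted p = 0.0153) and Xbp1 at 0.56 ± 0.43 (adjusted p = 0.291). Trib3 did not pass the false discovery rate by library size alone, at 0.54 (adjusted p = 0.111). Ddit3 was at 0.47 ± 0.55 (adjusted p = 0.49), and at 1.35 (adjusted p = 0.0544) without replicate 3. Chac1 passed 2-fold without WT LPS DMSO replicate 2, at 1.10 (adjusted p = 0.0155), with the replicate block, at 1.01 (adjusted p = 0.0163), and also when replicate 2 of IRF5 KO LPS DMSO was left out, at 1.26 (adjusted p = 0.00673), while without replicate 3 of that group it was 0.69 (adjusted p = 0.0416).

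After LPS with defactinib, 3 of the 10 were called, beside 17.3% of genes. Sesn2 was 7.57-fold lower in WT, at 30.8, 22.9 and 23.4 CPM against 191, 214 and 179 CPM, with a log2 fold change of -2.92 ± 0.26 (SE, edgeR, adjusted p = 3.88e-07). Trib3 was 2.60-fold lower in WT, with a log2 fold change of -1.38 ± 0.27 (SE, edgeR, adjusted p = 0.000758) and no overlap. Ddit3 was called higher in WT, with a log2 fold change of 1.602 ± 0.56 (SE, edgeR, adjusted p = 0.0356), although its libraries overlapped: WT was at 3.79, 5.85 and 22.9 CPM and IRF5 KO at 4.01, 3.07 and 3.61 CPM. That call rested on WT replicate 3, without which the value was 0.46 ± 0.42 (SE, edgeR, adjusted p = 0.448). It was lost as well without IRF5 KO LPS defactinib replicate 1, at 1.72 (adjusted p = 0.0725), replicate 2, at 1.52 (adjusted p = 0.102), or replicate 3, at 1.63 (adjusted p = 0.0852). The call was lost too with no filter, at 1.59 (adjusted p = 0.0982), with only these groups, at 1.63 (adjusted p = 0.0977), and with the replicate block, at 1.35 (adjusted p = 0.0534). Hspa5 (-0.86 ± 0.10, adjusted p = 8.27e-06), Atf4 (-0.62 ± 0.068, adjusted p = 3.7e-06) and Atf5 (-0.56 ± 0.16, adjusted p = 0.0141) passed the false discovery rate below 2-fold, all lower in WT.

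Other genes of these pathways were read from 5 lists: 9 eIF2α kinases and regulators, 28 further ATF4 target genes, 12 aminoacyl-tRNA synthetases, 6 UPR sensors and their partners other than PERK, which stands among the eIF2α kinases, and 28 ER chaperones and genes of ER-associated degradation (ERAD). Herpud1 and Dnajc3 stand in 2 lists each, and 26 of the 28 ATF4 targets were tested. With LPS in WT cells 3 of the 9 eIF2α genes rose and 2 fell, beside 11.6% of all tested genes higher and 9.71% lower. PKR (Eif2ak2) went from 91.9 ± 2.46 CPM to 319 ± 40.1 CPM, a log2 fold change of 1.80 ± 0.38 (SE, edgeR, adjusted p = 0.00137). PERK (Eif2ak3) fell from 31.8 ± 2.25 CPM to 11.1 ± 0.464 CPM (log2 fold change of -1.53 ± 0.14, edgeR, adjusted p = 6.61e-07), as did Impact, an inhibitor of GCN2, at -1.27 ± 0.098 (adjusted p = 1.01e-07). The adaptor Nck1 rose, at 1.75 ± 0.21 (adjusted p = 6.82e-06), and so did Ppp1r15b, the constitutive partner of the eIF2α phosphatase, at 1.31 ± 0.22 (adjusted p = 0.000177). The median of the list was 0.17 on the log2 scale.

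Of the 26 ATF4 targets 5 rose and 3 fell with LPS in WT, with a median log2 fold change of -0.021, beside the same shares of all genes, to which the falls were close. By library size alone the split was 5 higher and 7 lower, but that scaling moves the median of all genes by -0.38, and these counts are not to be read against the shares above. The largest rises were Nupr1, a stress-induced chromatin protein, at 4.29 ± 0.52 (adjusted p = 9.38e-06), the repressor Jdp2 at 2.59 ± 0.47 (adjusted p = 0.000373), and Cth, which makes cysteine, at 1.78 ± 0.55 (adjusted p = 0.0165) but with at most 0.665 CPM in any library of that comparison. The falls were Ddit4, an inhibitor of mTORC1, from 2.96, 2.71 and 3.05 CPM to 0.58, 0.537 and 0.686 CPM (log2 fold change of -2.27 ± 0.40, edgeR, adjusted p = 0.0003), Cebpb at -1.18 ± 0.32 (adjusted p = 0.00682) and Herpud1 at -1.03 ± 0.15 (adjusted p = 4.39e-05). DESeq2 did not call Herpud1, leaving 2 of the 26 lower, and called 6 higher. Of the 28 ER chaperone and ERAD genes Derl3 rose at 2.06 ± 0.53 (adjusted p = 0.00519), with levels under 0.51 CPM, and Herpud1 fell by edgeR but not by DESeq2, which called 0 of this list lower. Of the 12 tRNA synthetases 0 were called, with 5 at an unadjusted p below 0.05, and of the 6 UPR sensors, PERK not among them, 0, with 1 at such a p. DESeq2 also called 0 in both lists. Below 2-fold, edgeR had 2 tRNA synthetases past the false discovery rate higher and 2 lower, and 0 UPR sensors higher and 1 lower.

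In IRF5 KO cells LPS raised 2 of the 26 ATF4 targets, beside 7.07% of all tested genes, Ddit4 at 1.31 ± 0.36 (adjusted p = 0.0128) and Nupr1 at 1.47 ± 0.48 (adjusted p = 0.0282). Ddit4 was at 3.15, 3.23 and 3.87 CPM without stimulus and 11.1, 11.5 and 2.84 CPM after LPS, with replicate 3 below the unstimulated libraries, and without LPS DMSO replicate 3 its value was 1.72 ± 0.18 (SE, edgeR, adjusted p = 4.14e-07). DESeq2 called 4 of these targets higher, and the share of all tested genes that it called is not given here. Nupr1 was at 2.37, 2.97 and 10.4 CPM, its call rested on replicate 3, and the value without it was 0.48 ± 0.39 (SE, edgeR, adjusted p = 0.312). Of the other 4 lists 0 genes were called by edgeR or DESeq2. Below 2-fold, 11 of the 28 ER genes passed the false discovery rate higher and 1 lower by edgeR. Their median was 0.23 against 0.0063 over all tested genes, which library size alone moved by -0.24. The eIF2α genes had 0 higher and 3 lower, the tRNA synthetases 2 and 0, and the UPR sensors 1 and 1. At an unadjusted p below 0.05 there were 3 eIF2α genes, 3 tRNA synthetases, 3 UPR sensors and 15 ER genes. The shares of all tested genes at these cutoffs are not given here. Without replicate 3, Eif2ak2 (-1.05, adjusted p = 0.00825), Cebpg (-1.83, adjusted p = 7.91e-09), Slc7a1 (-1.13, adjusted p = 3.69e-07) and Syvn1 (-1.20, adjusted p = 2.19e-06) were called lower and Gdf15 (1.25, adjusted p = 0.0376) higher, beside 16.6% of all tested genes lower and 9.64% higher in that fit.

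With defactinib in WT cells the eIF2α list had 1 gene higher and 3 lower, beside 10.4% of all tested genes higher and 18.6% lower, in a comparison that shares the LPS DMSO libraries with that of LPS. Nck1 fell from 153 ± 10.2 CPM to 13.4 ± 2.53 CPM (log2 fold change of -3.51 ± 0.22, edgeR, adjusted p = 1.29e-08), Ppp1r15b from 379.9 ± 15.5 CPM to 49.4 ± 10.3 CPM (log2 fold change of -2.94 ± 0.23, edgeR, adjusted p = 1.09e-07) and Eif2ak2 at -1.91 ± 0.38 (adjusted p = 0.000667), while Impact rose at 1.18 ± 0.098 (adjusted p = 1.77e-07). Of the 26 ATF4 targets 2 rose and 6 fell, near those shares. Ddit4 rose from 0.58, 0.537 and 0.686 CPM to 7.81, 7.72 and 4.65 CPM (log2 fold change of 3.48 ± 0.41, edgeR, adjusted p = 5.71e-06), and Aldh18a1, which starts proline synthesis, at 1.29 ± 0.14 (adjusted p = 2.07e-06). The largest falls were Jdp2 at -3.39 ± 0.49 (adjusted p = 4.32e-05), Nupr1 at -2.68 ± 0.48 (adjusted p = 0.000269) and the stress factor Atf3, from 714 ± 76.5 CPM to 153 ± 39.5 CPM (log2 fold change of -2.23 ± 0.15, edgeR, adjusted p = 1.57e-08).

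The ER list had 2 of 28 genes lower and 0 higher with defactinib in WT, beside 18.6% and 10.4% of all tested genes. These were the ERAD ubiquitin ligase Syvn1 at -1.93 ± 0.32 (adjusted p = 0.000146) and its partner Sel1l at -1.13 ± 0.15 (adjusted p = 1.64e-05). At any fold change 9 of the 28 passed the false discovery rate higher and 6 lower. The median of the list was 0.14 against 0.086 over all tested genes. Of the tRNA synthetases and UPR sensors 0 were called by edgeR or DESeq2. By edgeR 6 of the 12 tRNA synthetases and 4 of the 6 UPR sensors passed the false discovery rate below 2-fold, all higher with defactinib. At an unadjusted p below 0.05 there were 8 and 4, with medians of 0.21 and 0.43 against 0.086 over all tested genes. The shares of all tested genes at these cutoffs are not given here. In IRF5 KO cells 0 genes of the 5 lists were called with defactinib by edgeR, beside 0.16% of all tested genes higher and 0.76% lower. They had 2, 7, 2, 0 and 10 genes, in the order of the lists, at an unadjusted p below 0.05. Of the ER genes 2 passed the false discovery rate below 2-fold, both higher. DESeq2 called 1, among the ATF4 targets. The direction of these lists' medians was read against all genes because library size alone moved the median of all genes by -0.38 with LPS and 0.20 with defactinib in WT.

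**Figure D3:**
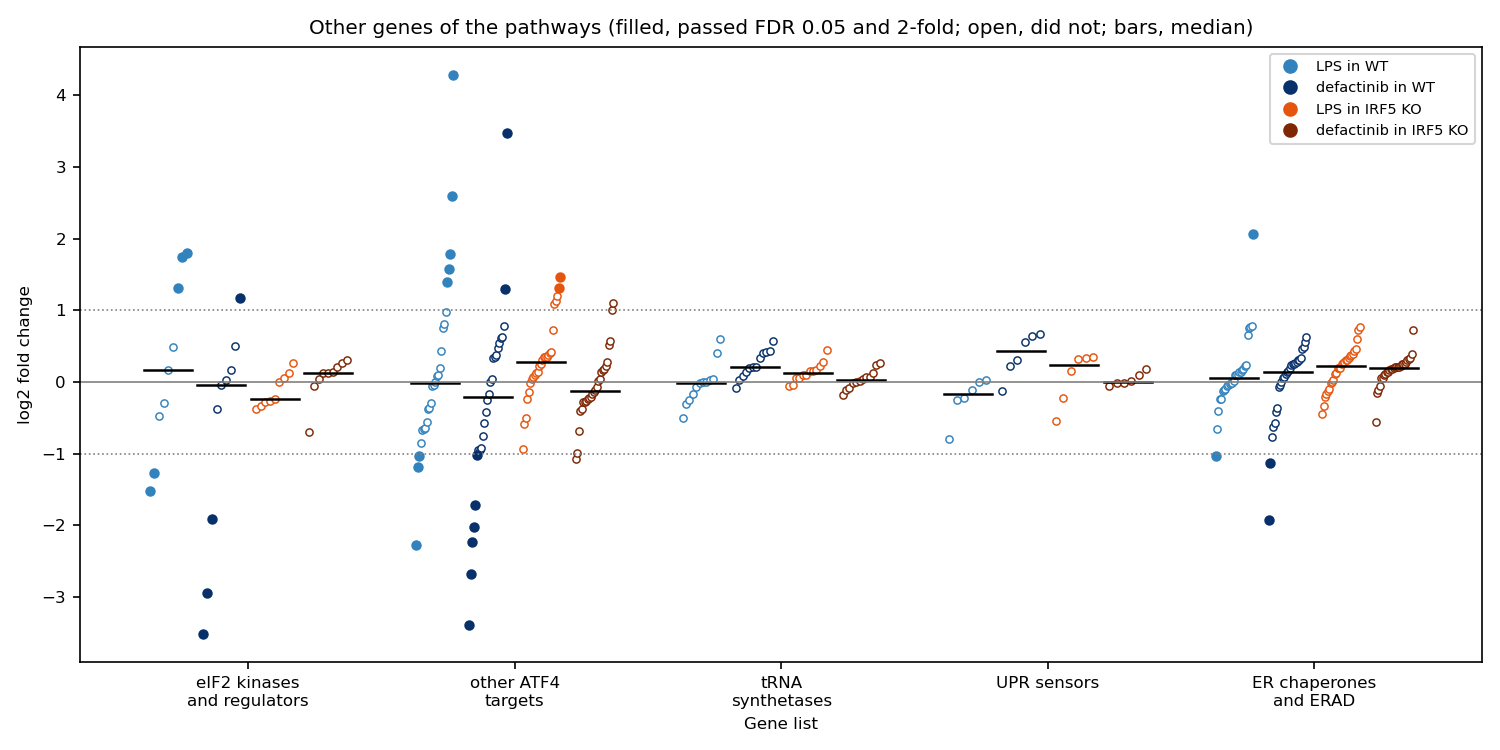
Log2 fold change of each tested gene of the 5 pathway lists, for LPS and defactinib in WT and IRF5 KO cells, with filled points for genes past both thresholds, open points for the others and bars for medians. In WT cells called eIF2α genes and ATF4 targets lie on both sides of 0, and the tRNA synthetases and the UPR sensors other than PERK, which is plotted with the eIF2α genes, hold no filled point.

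The genes with the pattern most like Atf4, Ddit3, Hspa5 and Xbp1 were found by the mean absolute difference of their log2 CPM group means, each centred over the 6 groups, among about 8458 genes at a mean log2 CPM of at least 3. For Atf4 these were Sf3b4 (0.041), Gm7935 (0.048) and Zfp384 (0.051). For Ddit3 they were 1700123O20Rik (0.079), Bloc1s5 (0.086) and Ltbr (0.10). Hspa5 was nearest to Fgfr1op (0.037), Gpbp1 (0.078) and Frs2 (0.082), and Xbp1 to Rnf41 (0.096), Timm29 (0.11) and Asxl2 (0.12). The group means in this measure include replicate 3 of IRF5 KO LPS DMSO and replicate 3 of WT LPS defactinib, which carries the Ddit3 mean of its group, and with 6 groups the values are a description.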

How the data were processed

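RNA-seq of 18 BMDM libraries was used, 3 for each of 6 groups taken from the labels. The authors deposited raw counts of read pairs per Ensembl gene; per the file headers and the study's methods, STAR aligned the read pairs to mm10 and they were counted over exons with featureCounts 1.6.3, reverse stranded (-s 2), with a mapping quality of 255. The gene length in the deposited table (unit other, in bases) served for RPKM. The annotation release used for counting is not given in the sources used here; symbols and positions come from GENCODE M21, which named 50376 of 50600 gene IDs. Exons shared with other genes (Atf5, Ddit3 and Ppp1r15a with 12 to 82 bases) are on the opposite strand. No column of another series was present and no pair of libraries agreed within sampling noise.

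Groups were compared with edgeR 4.0.16 in R 4.3.3 by its robust quasi-likelihood test, two-sided, with TMM normalization, filterByExpr over the groups and 1 mean per group, fitted to all 18 libraries, with Benjamini-Hochberg adjustment over 15663 genes. Calls needed an adjusted p under 0.05 and more than a 2-fold difference, as in the study, which used DESeq2. SE is the size of the log2 fold change divided by the square root of F. A chi-square of 1 per gene is what sampling noise gives (over genes whose 2 counts reach 20 together). The lowest library total, 39282181 pairs, and the others leave counts of 20 to 146 for the lowest gene, Chac1.

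The 10 genes, the pathway lists and the tests were chosen with earlier results of these data known. Named are the 10 genes; for each list, in the comparisons of LPS and of defactinib, up to 3 called genes with the largest rise and 3 with the largest fall; Irf5, 6 LPS response genes, and the 3 genes most alike to Atf4, Ddit3, Hspa5 and Xbp1. Genes called only without IRF5 KO LPS DMSO replicate 3 were named after their values were seen. Alternatives were DESeq2 1.42.0, its size factors, library size alone, no filter, a replicate block, only the groups compared, and each library left out. The script was tested on simulated counts. Promoter sequences are from RefSeq on GRCm38.p6.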

Additional observations from a re-analysis of the deposited data

Results flagged for a closer look

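One result was set apart by a difference between groups. The effect of defactinib on Trib3 in LPS-stimulated cells differed between genotypes by an edgeR interaction test, with a log2 difference (WT minus IRF5 KO) of -2.20 and an adjusted p of 0.000275. Within WT it was -1.78, lower in 3 of 3 treated libraries than in any DMSO library, and within IRF5 KO 0.41, where the libraries overlapped. That overlap rested on IRF5 KO LPS DMSO replicate 3, and without it the IRF5 KO value was 0.76 (edgeR, adjusted p = 0.0587). Without IRF5 KO LPS DMSO replicate 3 the difference between genotypes was -2.54 with an adjusted p of 3.84e-06, and over the 24 alternatives it ranged from -2.54 to -1.84 and was called in each. With all libraries Trib3 was 1 call among the 10 genes in this test, beside 22.8% of all tested genes. Hspa5 (-0.98, edgeR, adjusted p = 7.71e-05), Atf4 (-0.59, adjusted p = 0.000211) and Sesn2 (-0.89, adjusted p = 0.0487) passed its false discovery rate below 2-fold.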

How the results depend on the processing

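Over 24 alternatives the log2 fold changes of the 10 genes were recomputed in 10 comparisons. Of 2400 values, 2342 kept their side of the thresholds, 38 lost a call and 20 gained one. No called value turned (0 of 2400), and 44 of the 2342, none of them called, changed sign. Counts of called genes differed by over 1.5 times in these cases. With library size alone, 3 genes were called for LPS with defactinib in IRF5 KO in place of 7. With no filter on low counts, 1 was called for defactinib in WT in place of 2. With only the groups compared in the fit, 0 were called for LPS in IRF5 KO in place of 3, and 1 for WT against IRF5 KO after LPS with DMSO in place of 2; these fits hold 6 libraries, and the cause was not tested. Leaving out 1 library at a time gave 1 to 6 genes for LPS in IRF5 KO, 1 to 2 for defactinib in WT, 0 to 1 for defactinib in IRF5 KO, 1 to 4 for WT against IRF5 KO after LPS with DMSO and 1 to 3 for the genotype difference of defactinib. The counts for LPS in WT (2), LPS with defactinib in WT (4) and WT against IRF5 KO unstimulated (1) stayed within 1.5 times in every alternative.

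Replicate numbers did not pair the libraries: over 45 pairs of libraries with the same number the median correlation of deviations was 0.0046, and it was above 0.1 in 4. The fit with the replicate block called 3 genes in place of 2 for WT against IRF5 KO after LPS with DMSO, adding Chac1, and 2 in place of 3 after LPS with defactinib, losing Ddit3, and as many as without the block in the other 8 comparisons. DESeq2's size factors moved the median of all genes by at most 0.039, and library size alone by up to 0.38, on the log2 scale. Chac1 and Trib3 were the lowest per length of the genes followed in unstimulated WT cells, and the part of depth in the results was not tested.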
